A study of Mus musculus with 20 samples.

Results

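The genes described here are the protein-coding genes of the mouse whose symbol begins with Mrpl or Mrps followed by a digit, which name the proteins of the large and the small subunit of the mitochondrial ribosome. The rule found 78 genes among the 55401 of the count matrix, 49 of them Mrpl and 29 Mrps, on 17 chromosomes and with 0 on X or Y. Their RNA was measured in the gastrocnemius, the large calf muscle, of 20 C57BL/6 mice aged 24 months. HK, a standardized extract of the plant Salvia haenkei, had been given to 10 of them in the drinking water at 0.5 mg per kg per day from an age of 20 months, for 4 months, and 10 were untreated. Each treatment group held 5 males and 5 females, and each library came from a separate mouse. The libraries were made from total RNA depleted of ribosomal RNA and belonged to 2 experimental batches, batch 1 with 8 mice (replicates 1 and 2 of each group and sex) and batch 2 with 12 (replicates 3 to 5).

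Mitochondria keep a small genome of their own, and their ribosome makes only the proteins that this genome encodes, all of them core parts of the respiratory chain and ATP synthase. The RNA of this ribosome is encoded in the mitochondrion, whereas every one of its proteins is encoded in the nucleus, made in the cytosol and imported. Many of the proteins descend from those of the bacterial ribosome and the others joined later, and many of their symbols carry the number of the bacterial counterpart. Skeletal muscle depends on this machinery because its fibres, above all the slow and the fast oxidative ones, are rich in mitochondria.

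The symbols do not always name the place of the protein. By their known position, 51 members belong to the large subunit and 26 to the small subunit. Mrps18a and Mrps30 are counted among the large subunit proteins, where they sit despite their names, and Mrps36 is counted in neither, since its protein is a subunit of the α-ketoglutarate dehydrogenase complex. Of the 78 members, 77 passed the filter on low counts and were tested, among 13626 genes in all. The exception was Mrpl53, a large subunit gene with 6 counts over all 20 mice. Of its exon bases, 695 (88.0%) are shared on the same strand with the annotated gene Gm42688, which held 176 counts in all.

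Total counts per mouse ranged from 13900180 to 30469644, and members took between 0.218% and 0.295% of them. Xist reached at most 0.964 CPM in males and at least 149 in females, and the Y-linked Ddx3y was at 47.3 or more in males and at most 0.0607 in females, so the library of each mouse matched its labelled sex. The gastrocnemius is mainly built of fast fibres. The list of fast fibre markers (Acta1, Ckm, Myh4, Myh1, Tnnt3 and Pvalb) summed to between 118816 and 165622 CPM in the 20 mice. Acta1 and Ckm are not limited to fast fibres, so this sum is not specific to them. CPM is the count of a gene scaled to a common library size, with library sizes adjusted by edgeR's TMM method, and sums over members are sums of CPM.

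The members were moderately expressed and differed widely from each other. Per kb of annotated exon, Mrps21 stood highest at 66.1 ± 7.59 CPM (SD, n = 20), followed by Mrpl12 at 52.1 ± 8.99, Mrpl2 at 51.3 ± 5.06, Mrpl18 at 48.4 ± 3.16 and Mrpl14 at 43.7 ± 7.66. Mrps21 was above Mrpl12 by more than its own SD, while from Mrpl12 to Mrpl14 each differed from the next by less than the larger of their SDs. Mrpl12 is the counterpart of the bacterial stalk protein that receives translation factors, and its protein has also been found bound to the mitochondrial RNA polymerase. At the lower end stood Mrps22 at 3.45 ± 0.417 and Mrps33 at 3.47 ± 0.456, which did not differ beyond their spread, then Mrpl23 at 1.88 ± 0.180 and Mrps35 at 1.88 ± 0.163, likewise the same within their spread. Mrps10 was last with 0.738 ± 0.0700 CPM per kb.

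The median level was 12.3 CPM per kb over the 77 members tested, against 2.43 over the 13619 tested genes with a known length, of which 82.9% lay below the members' median. It was 13.3 for the 50 large subunit genes (range 1.88 to 52.1) and 7.70 for the 26 small subunit genes (range 0.738 to 66.1). Members with a bacterial counterpart had a median of 12.3 CPM per kb (n = 45) and those without one 12.2 (n = 30). Exon length is the union of all annotated transcripts, so a gene with long rare transcripts, or with unspliced ones, appears lower on this scale. Exons of 33 members share bases with another gene, on the opposite strand in 26 and on the same strand in 7, and the sources used here do not give whether the counting used strand. The share exceeded 50% of the exon bases in 3 of them: Mrpl53, Mrps34 with 77.8% opposite Mapk8ip3, and Mrps25 with 69.8% opposite Nr2c2.

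**Figure D1:**
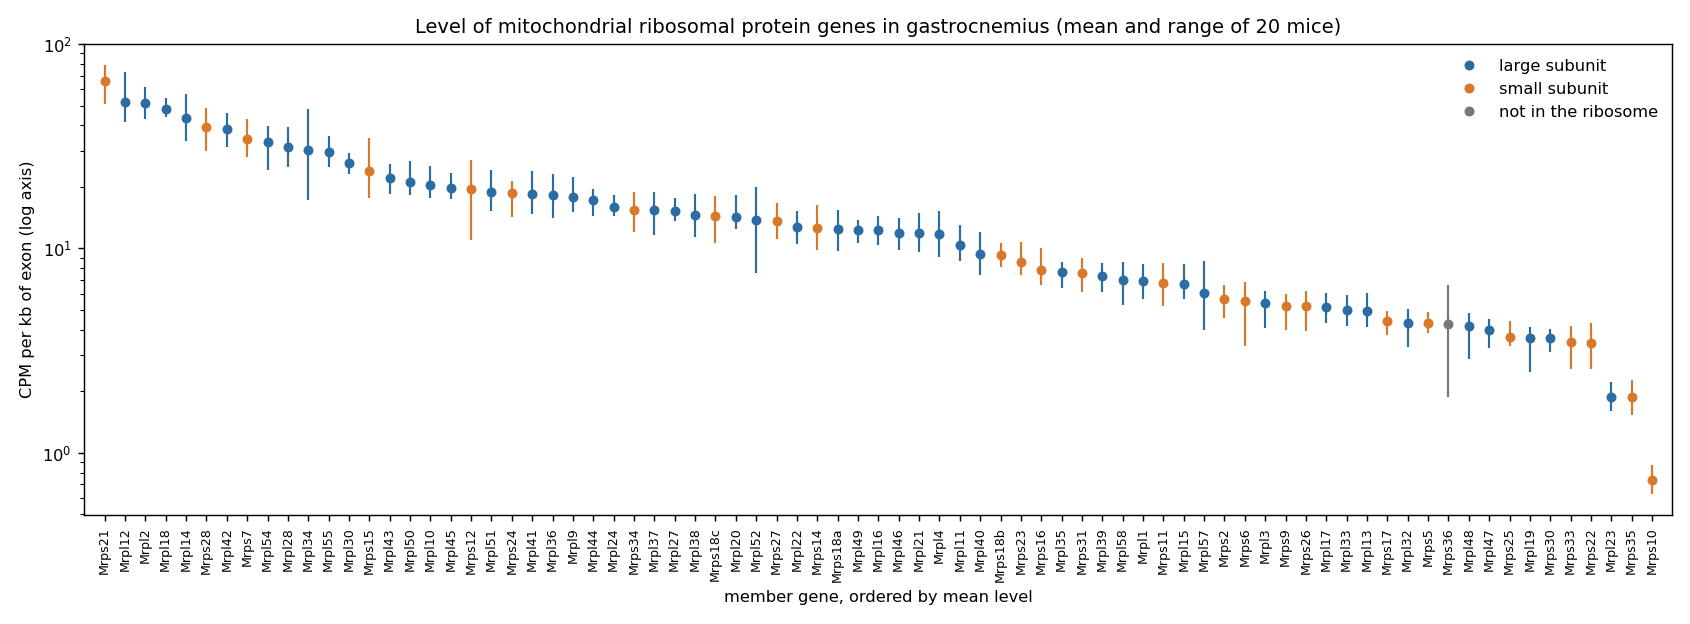
The level of the 77 tested members in CPM per kb of exon, on a log axis, with each point the mean of 20 mice and each line their range, coloured by subunit. Levels spanned from 66.1 for Mrps21 down to 0.738 for Mrps10, a ratio of 89.5, and most members varied little between mice next to the distance between genes.

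From mouse to mouse the members were among the steadier genes. Their biological coefficient of variation, the spread between mice left after batch, sex and treatment as estimated by edgeR, had a median of 9.87%, against 13.5% over all genes tested, and 76.8% of those genes had a value above the members' median. It was 10.1% for genes of the cytosolic ribosome and 10.8% for nuclear genes of oxidative phosphorylation. The genes compared were not matched for level, and 82.9% of tested genes lay below the members' median level per kb. The part of level in the low variation was not tested. The steadiest member was Mrpl24 at 6.77%, and the most variable were Mrps36 at 21.3%, Mrpl52 at 19.4% and Mrpl34 at 19.2%. The ratio of summed large to summed small subunit CPM stayed between 2.75 and 2.95 in the 20 mice.

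Much of the remaining variation was shared, so that a mouse low for 1 member was often low for most. After adjustment for batch and sex, HK-treated male 3 lay below the mean of all mice for all but 1 of the 77 members, with a median deviation of -0.21 (log2), and HK-treated male 2 for all but 2, with -0.13. At the other end, HK-treated males 5 and 1 each lay above the mean for 65 members, and untreated female 5 for 64. Both extremes were therefore found within the 5 HK-treated males. Members are not independent replicates, so these counts describe 20 mice and not 77 tests. The same count was not made over all genes, so the shared variation is not shown to be particular to the members.

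The first comparison asked whether HK altered the members. None of the 77 members rose or fell with HK, and the differences were small: the median log2 fold change, HK-treated minus untreated, was 0.00056, against 0.0024 over all genes tested, and the values lay between -0.16 and 0.19. In folds this is a range from 0.894 to 1.14. Summed over the members, HK-treated mice had 2257, 2383 and 2914 CPM (lowest, median, highest, n = 10) and untreated mice 2191, 2555 and 2758. The groups overlapped almost completely, with means of 2500 ± 226 and 2502 ± 195 (SD).

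Each gene was fitted with terms for batch, sex and treatment and tested by the quasi-likelihood method of edgeR, with Benjamini-Hochberg adjustment over the 13626 genes, and a gene is said to have passed, risen or fallen when its adjusted p was under 0.05. By this rule 0 of 77 members passed and 0.0% of all genes did. At an unadjusted p under 0.05 there was 1 of the 77 members, against a background of 6.13% of all genes (835 genes). DESeq2 and limma voom also called 0 members, each with 1 member at an unadjusted p under 0.05. The 95% interval of the fold change lay within 0.32 log2 units in either direction for 72 of the 77 members, so for these a larger difference between the group means was outside the interval. The widest bounds reached -0.30 (Mrpl41) and 0.40 (Mrps12) on the log2 scale.

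**Figure D2:**
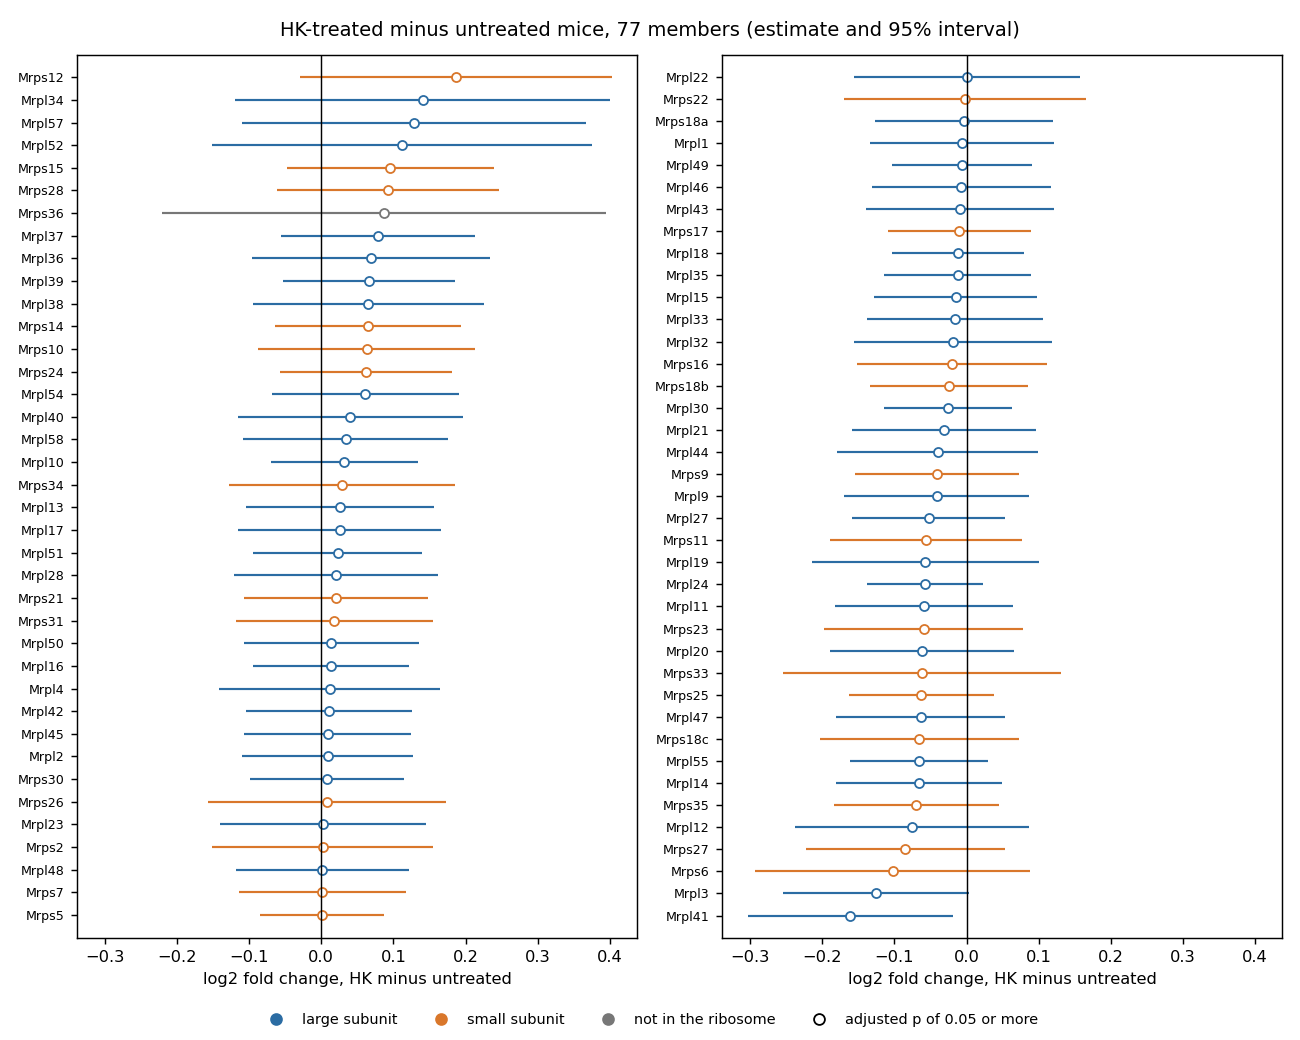
The log2 fold change of each of the 77 tested members, HK-treated minus untreated (10 mice each), with its 95% interval and coloured by subunit. Open circles mark an adjusted p of 0.05 or more, which holds for all 77, and estimates run from -0.16 for Mrpl41 to 0.19 for Mrps12 with 39 members right of 0 and 38 left of it.

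The large subunit gene Mrpl41, without a bacterial counterpart, had the lowest p. It measured 13.1, 15.7 and 20.0 CPM in HK-treated mice (lowest, median, highest) and 14.1, 17.6 and 21.1 in untreated mice. The groups overlapped over most of their range, although the untreated median exceeded 9 of the 10 HK-treated values. Its log2 fold change was -0.16 ± 0.068 (SE), with an unadjusted p of 0.028 and an adjusted p of 0.80 by edgeR's quasi-likelihood test. In females the 5 HK-treated mice had 13.9, 13.4, 13.2, 15.5 and 16 CPM and the 5 untreated mice 17.3, 15.8, 15.6, 18.0 and 18.7. Only HK-treated female 5 reached into the untreated range there. In males the values were 16.3, 13.1, 15.9, 17.5 and 20.0 against 14.3, 14.1, 21.1, 19.1 and 18.8, which were intermixed. The HK effect on Mrpl41 in males minus that in females was 0.17 ± 0.13 (log2). This difference between the sexes did not pass (adjusted p = 0.998, edgeR's quasi-likelihood test).

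Mrpl3 came next, the counterpart of a bacterial protein that reaches towards the peptidyl transferase centre, where peptide bonds are made. It measured 27.1, 35.0 and 37.1 CPM with HK and 29.2, 38.5 and 41.0 without (log2 fold change -0.13 ± 0.062). The untreated median exceeded the value of all 10 HK-treated mice, yet untreated female 3 at 29.2 CPM was lower than 9 of them. The adjusted p by edgeR's quasi-likelihood test was 0.80. On the higher side Mrps12, the counterpart of a protein of the bacterial decoding centre, measured 15.8, 20.1 and 28.2 CPM with HK and 11.4, 20.0 and 26.1 without. These medians were nearly equal and the fitted log2 fold change was 0.19 ± 0.10, with an adjusted p of 0.80 by the same test.

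The other members at the head of the ranking lay closer to 0. On the lower side these were Mrpl24, Mrpl55, Mrps25, Mrps27, Mrps35 and Mrpl14, with log2 fold changes between -0.08 and -0.06. On the higher side were Mrps15, Mrps28, Mrpl37, Mrpl39, Mrpl34, Mrpl57 and Mrps24, between 0.06 and 0.14. All of them had adjusted p-values of 0.83 or more by edgeR's quasi-likelihood test. Of the S18 paralogues, Mrps18a was at -0.0031, Mrps18b at -0.02 and Mrps18c at -0.07, Mrpl23 was at 0.0027 and Mrps36 at 0.09. Mrpl12 stood at -0.075 ± 0.078 and Mrpl58, a peptidyl-tRNA hydrolase that frees stalled ribosomes and is built into the large subunit, at 0.034 ± 0.068.

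Neither subunit moved with HK. Of the 50 large subunit genes tested 25 were higher and 25 lower, at a median log2 fold change of -0.0013,, and of the 26 small subunit genes 13 were higher and 13 lower, with a median of -0.00068. Members with a bacterial counterpart had a median of -0.0098 and those without one 0.0077. The direction of the small differences turned between subsets of mice: the median was 0.038 in batch 1 alone (50 of 77 higher) and -0.035 in batch 2 alone (26 of 77 higher), -0.027 in males alone (23 higher) and 0.0016 in females alone (39 higher). The difference between subsets was tested directly by interaction terms. For treatment by sex 0 of 77 members passed (0.0% of all genes), as for treatment by batch (0.0%), and at an unadjusted p under 0.05 there were 0 members for either, against 3.49% and 3.0% of all genes, by edgeR's quasi-likelihood test. The lowest p for treatment by sex belonged to Mrpl55, whose HK effect was lower in males than in females by -0.14 ± 0.088 (log2), followed by Mrpl30 (-0.13 ± 0.082) and Mrpl40 (-0.23 ± 0.14). For treatment by batch the first were Mrps33 (-0.28 ± 0.18, batch 2 minus batch 1), Mrpl46 (-0.17 ± 0.12) and Mrps17 (-0.14 ± 0.095).

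Genes that act with the mitochondrial ribosome were not called with HK either. A list of 97 was set beside the members, of which 91 were tested, 0 passed and 0 had an unadjusted p under 0.05. Among the 4 other proteins of the small subunit (Dap3, Chchd1, Aurkaip1, Ptcd3) the median log2 fold change was 0.037, and Gadd45gip1, a protein of the large subunit, was at 0.071. The 28 genes of ribosome assembly and ribosomal RNA modification had a median of -0.0037, the 15 translation factors 0.0073, the 20 aminoacyl-tRNA synthetases and their partners 0.018, and the 14 genes of mitochondrial DNA transcription and biogenesis 0.026. The lowest p on the higher side belonged to the release factor gene Mtrf1l, with 5.56, 6.25 and 7.92 CPM with HK against 4.47, 5.48 and 6.95 without (log2 fold change 0.17 ± 0.088), then to Malsu1, an assembly factor that binds the Mrpl14 protein (0.12 ± 0.068), and Gatc (0.098 ± 0.060). On the lower side they were Tars2 (-0.11 ± 0.062), Mettl17 (-0.12 ± 0.073) and Rpusd4 (-0.12 ± 0.076). None of these 6 passed (adjusted p from 0.80 to 0.83, edgeR's quasi-likelihood test).

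The products of the mitochondrial genome were close to 0 as well. Of its 13 mRNAs 7 were tested, at a median log2 fold change of 0.041,, and of its 2 ribosomal RNAs both, with a median of 0.11, although the libraries were depleted of ribosomal RNA. The other 6 mRNAs, among them mt-Co2 and mt-Co3, held 1 to 3347 counts over all mice, and 3213 of the 3347 of mt-Atp6 came from untreated female 4. The mRNAs of the mitochondrial genome took 7.87% ± 0.922 of all counts in HK-treated mice and 7.82% ± 0.723 in untreated mice. Nuclear genes of oxidative phosphorylation (median -0.016, 88 tested) and of the cytosolic ribosome (median -0.011, 79 tested), lists chosen after the data had been seen, likewise had 0 genes called.

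Marker genes of other cells and of fibre types were read in the same mice. With HK, 0 of them passed in any of the 8 marker lists. The 7 macrophage (median log2 fold change -0.28), 5 endothelial (-0.26) and 5 fibroblast markers (-0.22) were all lower. The 3 tested neuron and Schwann cell markers were all higher (0.36), and the fast fibre, adipocyte and blood lists were mixed. The 6 slow fibre genes were all lower (median log2 fold change -0.72), their sum being 542, 1620 and 2834 CPM with HK against 603, 2239 and 5183 without. This difference lay mainly in males, with means of 757 ± 248 against 1876 ± 1892 CPM (SD, n = 5), where untreated male 3 had 5183 and the other untreated males 603 to 1535. In females the means were 2546 ± 290 and 2716 ± 570. Without untreated male 3 the median log2 fold change of the slow fibre genes was -0.26. In bulk tissue, fewer cells or fibres of a type cannot be told apart from less RNA in each of them. The part of fibre composition in the members' values was not tested.

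Males and females were balanced over treatment and batch, so the same fit also compared them. The members were higher in males: 15 of 77 rose (19.5%), against 8.79% of all genes, and 0 were lower, against 7.33% of all genes. The members that rose were from both subunits, 9 large and 6 small, and their folds were modest, from 1.11 to 1.19. This excess depended on single mice: without HK-treated male 1 the share was 6.49% of the members against 6.83% of all genes. Beyond those called, 73 of the 77 were higher in males, beside 48.6% of all genes. The median log2 fold change was 0.11, male minus female, against -0.0065 over all genes. The 4 on the other side were Mrps36 (-0.070 ± 0.15), Mrpl47 (-0.057 ± 0.056), Mrpl22 (-0.052 ± 0.076) and Mrps21 (-0.050 ± 0.061), none of which passed. Without HK-treated male 1, 64 members were higher in males (median 0.078), and without HK-treated male 4, 68 were (median 0.079). Without both of these males 66 were higher. Summed over the members, males had 2257, 2657 and 2914 CPM (lowest, median, highest) and females 2191, 2370 and 2656. The sums overlapped, with means of 2603 ± 215 in males and 2400 ± 142 in females.

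**Figure D3:**
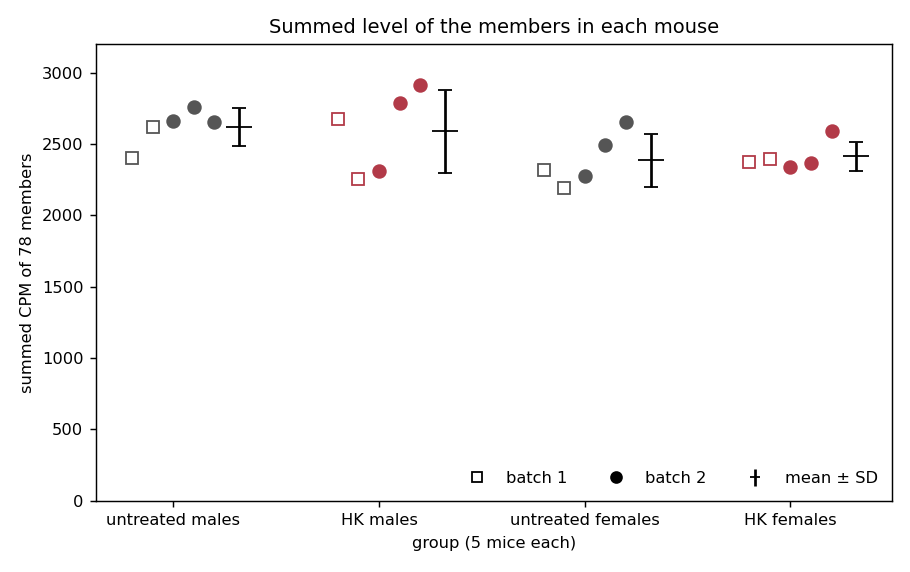
The summed CPM of the members in each mouse, by treatment and sex with 5 mice a group, squares for batch 1 and circles for batch 2, beside the mean and SD. Untreated males (2618 ± 132) and HK-treated males (2588 ± 293) averaged above untreated females (2387 ± 186) and HK-treated females (2413 ± 101), with overlap, and the HK-treated males spread most, from 2257 to 2914.

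The member with the lowest p was Mrpl55, a protein of the large subunit. Untreated males measured 31.1, 33.8, 36.4, 36.4 and 34.8 CPM and HK-treated males 30.0, 28.1, 31.1, 34.5 and 33.4. Untreated females measured 25.7, 26.2, 27.7, 28.6 and 32.1 and HK-treated females 26.5, 26.9, 27.0, 27.6 and 32.8. All 10 males lay above the female median, while untreated females 4 and 5 and HK-treated female 5 reached into the male range. The log2 fold change was 0.23 ± 0.046 (1.17-fold) with an adjusted p of 0.0017 by edgeR's quasi-likelihood test.

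Mrps18a, the large subunit paralogue of bacterial S18, measured 43.9, 46.7, 56.4, 50.7 and 50.9 CPM in untreated males and 56.8, 43.5, 44.4, 48.7 and 55.4 in HK-treated males. Females had 40.6, 35.7, 46.8, 42.5 and 46.0 untreated and 37.6, 40.1, 45.2, 38.9 and 47.6 with HK. All males again exceeded the female median and 6 of 10 exceeded the highest female. Its log2 fold change was 0.24 ± 0.059 (adjusted p = 0.0075, edgeR's quasi-likelihood test). Of its small subunit paralogues Mrps18c rose by 0.20 ± 0.066, just inside the threshold with an adjusted p of 0.049 by the same test, whereas Mrps18b was at 0.020 ± 0.053 and did not pass. Mrps18c shares 23.2% of its exon bases with Gm43511 on the same strand, a gene with 66 counts in all.

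Mrpl14, at the interface between the subunits, and Mrpl9 were also among the first. Mrpl14 had 33.4, 45.7 and 53.8 CPM in males and 31.9, 38.0 and 44.5 in females (log2 fold change 0.24 ± 0.055, adjusted p = 0.0044, edgeR's quasi-likelihood test). Mrpl9 had 43.1, 54.6 and 60.4 in males and 40.6, 45.1 and 49.3 in females (0.24 ± 0.062, adjusted p = 0.012, same test). Male and female ranges overlapped for either gene, and 5 and 7 males respectively exceeded every female. Mrpl12 had the largest fold of all members, 1.19, with 64.2, 83.8 and 111 CPM in males and 63.5, 69.2 and 92.4 in females (adjusted p = 0.030). Mrpl10, which anchors the Mrpl12 stalk, was 1.11-fold higher in males (0.15 ± 0.049, adjusted p = 0.045, edgeR's quasi-likelihood test). Both calls depended on single mice. With each of the 20 mice left out in turn, Mrpl10 was no longer called in 17 fits and Mrpl12 in 9.

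The separation was clearest for Mrps9 and Mrpl48, for which all 10 males lay above the female median and 8 above every female. Mrps9 measured 29.6, 32.5 and 34.6 CPM in males and 23.1, 29.1 and 31.1 in females, and Mrpl48 measured 32.9, 36.2 and 39.2 against 23.6, 32.6 and 34.6. Mrps27, which carries the pentatricopeptide repeats typical of RNA binding proteins of organelles, rose by 0.23 ± 0.066 (log2). It shares 24.2% of its exon bases with a transcript of the opposite strand. Mrpl46 and Mrps11 rose by 0.22 ± 0.059 and 0.23 ± 0.064. They are head-to-head neighbours on chromosome 7 whose annotated exons overlap by 173 bases on opposite strands, so a part of their reads may be common to them. The remaining members called were Mrps16, Mrpl16 and Mrps15. Just outside the threshold were Mrpl21 (adjusted p = 0.053, edgeR's quasi-likelihood test) and Mrpl51 (0.073), with log2 fold changes of 0.18 and 0.15.

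**Figure D4:**
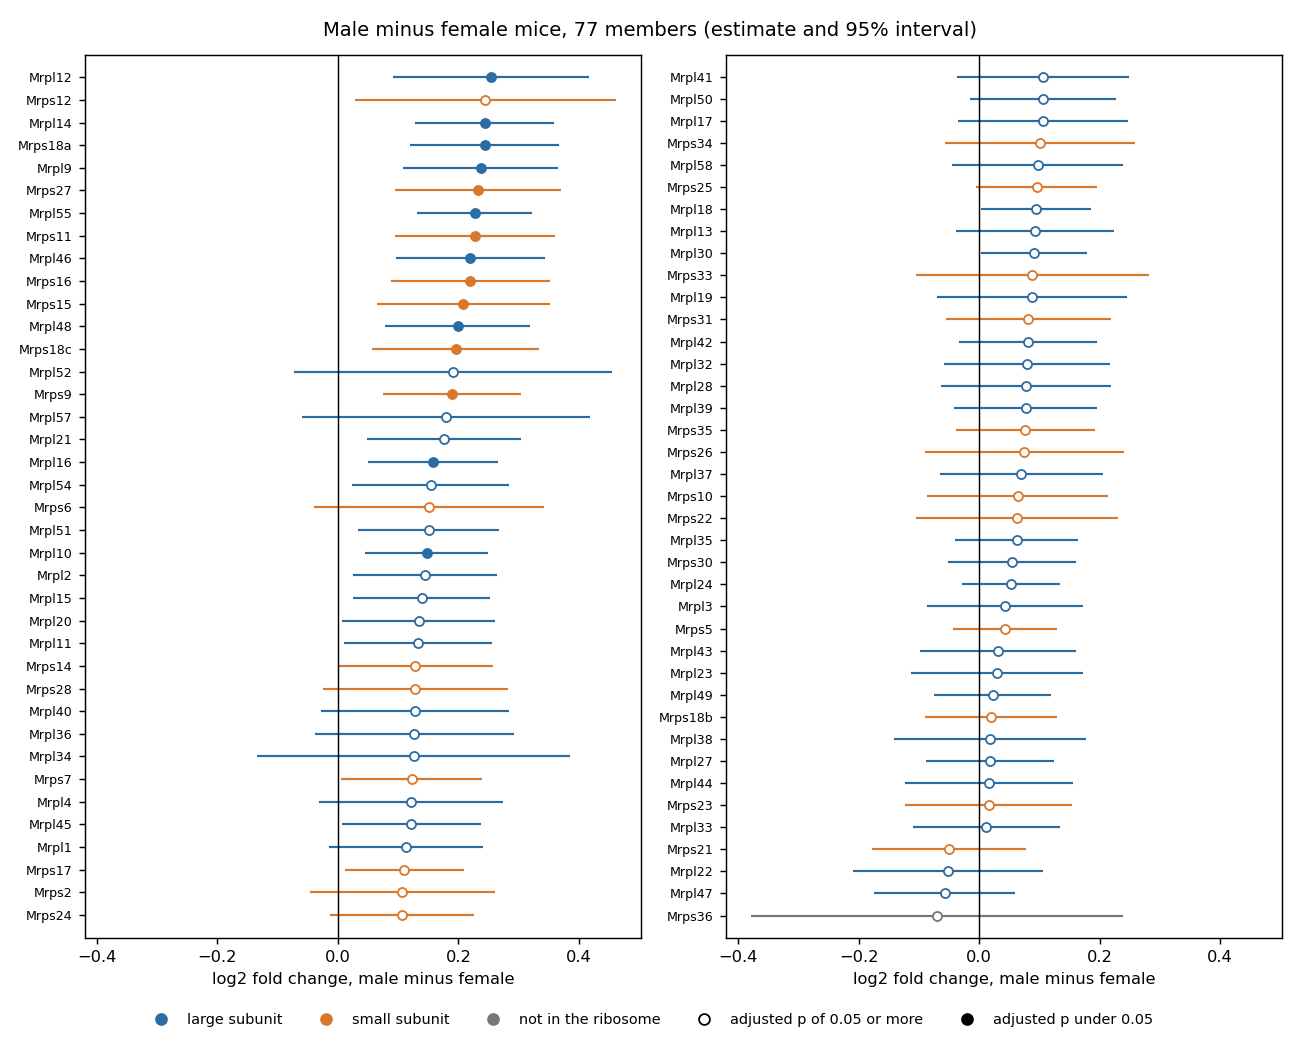
The log2 fold change of each of the 77 tested members, male minus female (10 mice each), with its 95% interval and coloured by subunit. Filled circles mark the 15 members with an adjusted p under 0.05, all to the right of 0, and 73 of the 77 estimates lie right of 0, from Mrpl12 at 0.25 down to Mrps36 at -0.070.

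Over smaller sets of mice few members passed. Of the 77 members, 60 were higher in males in batch 1 alone, 68 in batch 2 alone, 69 in untreated mice alone and 66 in HK-treated mice alone, beside 46.5% to 49.1% of all genes. Those that passed were Mrps27 in batch 1 (5.49% of all genes passed on the higher side there), Mrpl14 in batch 2 (3.38%), Mrpl55 in untreated mice (1.95%) and 0 members in HK-treated mice (2.94%). The share of members called was thus below that of all genes in each of the 4 fits. Leaving out each mouse in turn gave between 5 and 20 members called higher. Without HK-treated male 1 there were 5 (6.49%), which is near the 6.83% of all genes, and without HK-treated male 4 there were 8 (10.4%, against 7.04%). Without both of these males there were 3 (3.90%, against 6.51%), all among the 15. Mrpl55, Mrpl14, Mrps18a and Mrpl9 were the 4 called in every leave-one-out fit. The others of the 15 lost their call in 1 to 17 of these fits. Mrpl10 lost it in 17, and Mrpl16, Mrps15 and Mrps18c in 15 each.

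**Figure D5:**
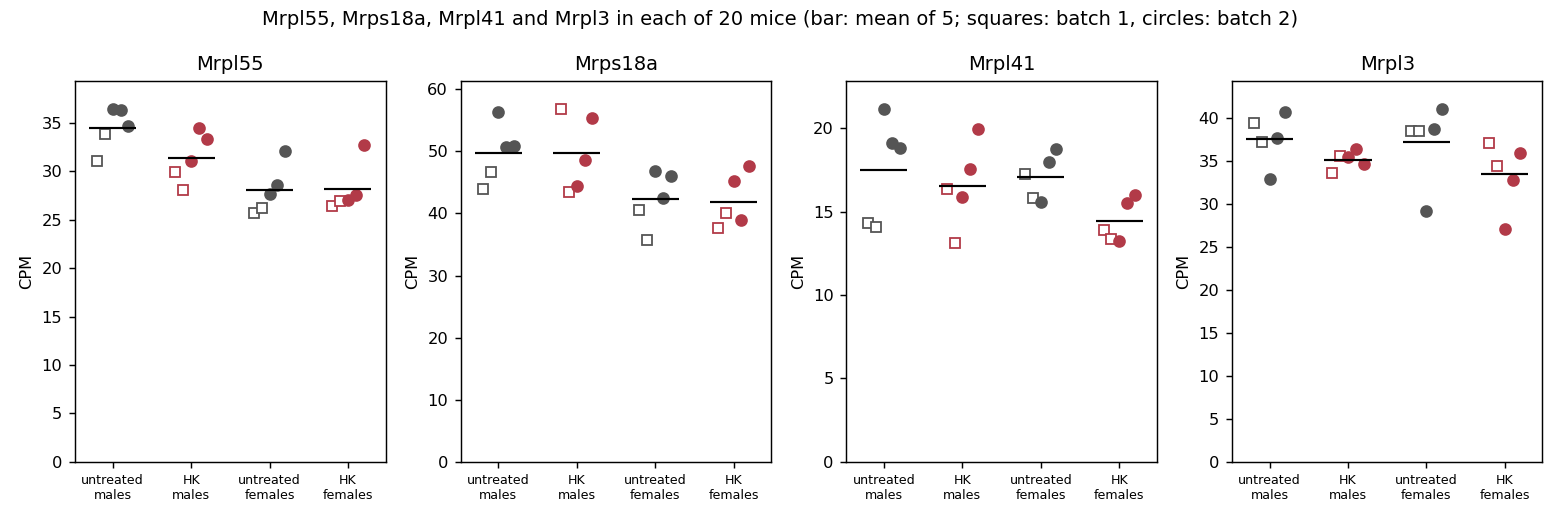
The CPM of Mrpl55, Mrps18a, Mrpl41 and Mrpl3 in each of the 20 mice by treatment and sex, with bars for the mean of 5, squares for batch 1 and circles for batch 2. Mrpl55 and Mrps18a were higher in males, as 10 of 10 males lay above the female median for either, while for Mrpl41 (-0.16 log2) and Mrpl3 (-0.13 log2) HK-treated mice overlapped untreated ones.

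Other genes of mitochondria differed by sex as well, and so did markers of fibre type. Of the 88 nuclear genes of oxidative phosphorylation tested 45 rose in males and 0 fell, with a median log2 fold change of 0.18, larger than the members' 0.11, whereas 1 of 79 genes of the cytosolic ribosome rose (median 0.032). Of the 7 tested mRNAs of the mitochondrial genome 4 rose (mt-Co1, mt-Nd1, mt-Nd4 and mt-Cytb), and these mRNAs took 8.36% ± 0.543 of the counts in males and 7.34% ± 0.709 in females. Of the genes that act with the ribosome, 4 of 28 of assembly and modification rose (Rpusd4, Rcc1l, Rpusd3, Mrm1) and 1 fell (Mtg2), 2 of 15 translation factors rose (Mtif3, Oxa1l) and 2 of 20 of the aminoacyl-tRNA list rose (Fars2, Qrsl1). Among the 14 of mitochondrial DNA transcription and biogenesis Esrra rose by 0.36 ± 0.061 (log2), a nuclear receptor that drives genes of mitochondrial energy metabolism, while Twnk (-0.27 ± 0.076) and Polg (-0.19 ± 0.062), the replicative helicase and polymerase of mitochondrial DNA, fell. Of the exon bases of the member Mrpl43, 33.4% lie opposite those of Twnk. The 4 small subunit genes outside the Mrp symbols had a median of 0.046 and Gadd45gip1 was at -0.14, and 0 of these passed.

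The slow fibre markers were lower in males, with 5 of 6 called lower at a median of -1.17 (log2). Their sum was 542, 723 and 5183 CPM in males and 1969, 2635 and 3546 in females, and all males other than untreated male 3 were at 1535 or less. Of the 6 fast fibre markers 4 were higher in males and 2 of these rose (Ckm and Tnnt3). The myosin genes of the list, Myh4 (-0.085) and Myh1 (-0.13, log2), were on the lower side and did not pass. Further markers that passed were 3 of 4 of adipocytes and 2 of 3 tested of neurons and Schwann cells, lower in males, 1 of 4 of blood, lower, and 1 of 7 of macrophages, higher. Of fibroblast and endothelial markers 0 of 5 passed in each. Without untreated male 3, 11 members were called higher in males (14.3%, against 9.00% of all genes). In that fit 6 slow fibre markers were called lower (median -1.63). Without HK-treated male 1 these numbers were 5 (6.49%, against 6.83%) and 3 (median -1.13). Without HK-treated male 4 they were 8 (10.4%, against 7.04%) and 4 (median -1.12). Such counts change with the precision of each fit, so they cannot show whether members and slow fibre markers move together. The part of fibre type and of other cells in the difference of the members was not tested.

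Some promoters of the members hold the motifs of factors long tied to nuclear genes of mitochondria. NRF1 and the ETS factor GABP activate many of these genes, and YY1 does so in muscle. In the 250 bases before the annotated start, searched on both strands, the NRF1 motif (GCGCA, any base N, then GCGC) was found in 10 of the 69 members with a promoter entry (14.5%), against 4.23% of all 27025 genes and 9.23% of the 9720 tested protein-coding genes. The ETS motif CCGGAAG was found in 18 members (26.1%), against 7.83% and 15.3%, and the YY1 motif AAGATGGC in 4 (5.80%), against 1.83% and 2.34%. With the 50 bases after the start included, the NRF1 motif was in 13 members (18.8%, against 5.19% and 11.5%). The ETS motif was then in 26 (37.7%, against 9.93% and 19.7%) and the YY1 motif in 12 (17.4%, against 3.19% and 5.24%). In the 250 bases alone, at least 1 of the 3 motifs was present in 30 of the 69 members (43.5%), against 12.8% of all 27025 genes, and in 8 of the 15 that rose in males. This share was not computed over the tested protein-coding genes, where each single motif was more frequent than over all genes. The RefSeq sequence of build GRCm38.p6 is shown for those members that rose in males, have 1 promoter entry and a match, and whose window holds no exon of another gene. These are Mrps18a (chr17:46110754-46111003, plus strand, ETS match beginning 26 bases before the start), Mrpl9 (chr3:94443086-94443335, plus strand, NRF1 match at 28 bases) and Mrpl12 (chr11:120484387-120484636, plus strand, NRF1 match at 81 bases, read on the minus strand). Capitals mark the matched letters, which are a description of the sequence and not a measured binding site.
Mrps18a: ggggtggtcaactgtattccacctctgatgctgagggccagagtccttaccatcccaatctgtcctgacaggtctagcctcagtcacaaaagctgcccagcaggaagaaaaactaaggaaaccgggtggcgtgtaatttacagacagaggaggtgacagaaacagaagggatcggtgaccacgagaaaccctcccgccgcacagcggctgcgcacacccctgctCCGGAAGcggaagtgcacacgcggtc
Mrpl9: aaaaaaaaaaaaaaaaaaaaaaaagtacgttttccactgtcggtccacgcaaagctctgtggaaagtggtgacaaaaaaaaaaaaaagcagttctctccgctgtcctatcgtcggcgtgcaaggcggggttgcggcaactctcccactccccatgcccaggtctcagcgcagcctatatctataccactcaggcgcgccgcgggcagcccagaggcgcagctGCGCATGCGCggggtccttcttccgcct
Mrpl12: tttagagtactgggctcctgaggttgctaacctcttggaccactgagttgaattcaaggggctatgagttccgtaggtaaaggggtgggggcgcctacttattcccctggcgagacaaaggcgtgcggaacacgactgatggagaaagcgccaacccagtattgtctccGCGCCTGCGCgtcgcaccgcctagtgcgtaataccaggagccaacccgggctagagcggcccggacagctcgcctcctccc
These members were 1.18-fold, 1.18-fold and 1.19-fold higher in males. The match of Mrps18a and that of Mrpl9 begin within 30 bases of the start, and that of Mrpl12 lies further upstream. Mrps27, Mrps16, Mrpl48 and Mrps18c also hold an ETS match and Mrps11 a YY1 match in the 250 bases before the start. In the same 250 bases Mrpl55 and Mrpl14 hold none of these letters.

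The batches differed at many genes, and members were part of this. In batch 2, 15 of 77 members rose (19.5%), against 18.2% of all genes, and Mrps18c alone fell (-0.23 ± 0.067) (19.0% of all genes). Mrpl14 was the first, with 31.9, 34.3 and 40.3 CPM in batch 1 and 37.6, 43.1 and 53.8 in batch 2, of whose 12 mice 10 exceeded every mouse of batch 1 (log2 fold change 0.36 ± 0.057). Mrps36 had the largest difference, 2.39, 3.57 and 5.17 CPM against 3.98, 6.81 and 8.41 (0.76 ± 0.15), and Mrpl42 had 115, 126 and 140 against 123, 153 and 169 (0.24 ± 0.057). The adjusted p-values of these 3 were 0.0023 or less by edgeR's quasi-likelihood test, and the ranges of the batches overlapped for each. The other members that rose were Mrpl51, Mrpl54, Mrps11, Mrps21, Mrpl55, Mrpl4, Mrpl41, Mrps7, Mrpl38, Mrpl37, Mrpl21 and Mrpl12, by 0.16 to 0.25. On the lower side, after Mrps18c, came Mrpl1 (-0.16 ± 0.062) and Mrpl50, which did not pass. Of the cytosolic ribosomal genes 57 of 79 rose in batch 2, at a median log2 fold change of 0.27 against 0.072 for the members. Markers of other cells were higher in batch 2 as well: 7 of 7 of macrophages rose (median 1.90), 5 of 5 of fibroblasts (0.75), 4 of 4 of blood (2.00), 1 of 4 of adipocytes and 1 of 5 of endothelium, and 2 of 6 of fast fibres. The macrophage sum was 18.6, 39.3 and 64.6 CPM in batch 1 and 58.7, 135 and 273 in batch 2, and the fibroblast sum was 153, 285 and 387 against 276, 472 and 1307. Of slow fibre and neuron and Schwann cell markers 0 passed. The part of these cells in the batch difference of the members was not tested.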

How the data were processed

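The authors prepared total RNA with TRIzol, depleted ribosomal RNA, sequenced on a NextSeq 500, and aligned reads with STAR 2.6.1c to GRCm38.p6 with GENCODE M25. They deposited raw counts per gene, whole numbers without normalization. The counting tool, its use of strand and its treatment of multiply mapped reads were not given by any source used here, so overlapping genes and pseudogene copies may share or lose reads.

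From these counts, genes were filtered by filterByExpr over the 4 groups of treatment and sex, scaled by TMM and tested with edgeR 4.0.16 (quasi-likelihood, with batch, sex and treatment as terms) in R 4.3.3, with Benjamini-Hochberg adjustment over 13626 genes. SE is the absolute log2 fold change divided by the square root of F. Exon lengths and overlaps came from GENCODE M21 on GRCm38, which matched 55141 of 55401 identifiers. DESeq2 1.42.0, limma 3.58.1 (voom), other scaling, no filter, subsets and each mouse left out were alternatives. Scripts were tested on simulated data with log2 changes of 1 and 2, so this test does not cover differences as small as those of the members. In 16 pairs of replicates compared, counts differed beyond sampling noise (the lowest chi-square was 8.37 times its degrees of freedom), and all mice were kept apart.

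Genes named were the members lowest in p in each direction (8 with HK, 5 by sex, 3 by batch), the 3 lowest for each interaction, the 5 highest and 5 lowest in level, Mrps18a to Mrps18c, Mrpl12, Mrpl23, Mrps36, Mrpl58, members failing the filter, and 3 genes in each direction of the related lists with HK. Others, such as the remaining members called by sex or batch and the genes called in the related lists, were named after their values were seen. The members and lists were chosen with earlier results of these data known. Total counts limit the precision of low members such as Mrps36.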

Additional observations from a re-analysis of the deposited data

Results flagged for a closer look

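In each group of 5 mice the lowest and highest values of the summed level and of the members named were set against their neighbours by Dixon's test at 95%, and 12 of 208 groups (5.77%) had a mouse that stood apart, where chance gives about 1 in 20. In HK-treated female 5 the summed member level was 2590 CPM (the others 2339 to 2394), Mrpl38 was 46.7 CPM (33.9 to 36.3) and Mrpl55 was 32.8 CPM (26.5 to 27.6). In untreated female 3 Mrpl3 was 29.2 CPM (38.5 to 41.0), Mrpl48 was 23.6 CPM (32.5 to 34.6) and Mrpl50 was 38.7 CPM (45.0 to 46.2). In untreated male 1 Mrpl39 was 16.3 CPM (19.6 to 20.6), Mrps10 was 5.43 CPM (6.16 to 6.41), Mrps21 was 37.5 CPM (49.2 to 51.3) and Mrps24 was 24.9 CPM (28.8 to 30.0). Mrpl40 was 21.2 CPM in untreated male 4 (16.2 to 17.3), and Mrps27 was 34.6 CPM in untreated female 5 (23.8 to 26.6).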

How the results depend on the processing

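With HK, 0 members were called under every alternative that was run. At an unadjusted p under 0.05 there was 1 member, 2 with the replicate number as a block, 0 without covariates, 0 in batch 1 alone, and 0 to 3 with each mouse left out (0 without HK-treated female 3, untreated female 1 or untreated female 2, 2 without HK-treated female 1, HK-treated male 4 or untreated female 3, and 3 without HK-treated female 5 or HK-treated male 3). The labels give mice of equal replicate number no shared origin, and they were not taken as pairs. Their deviations correlated between -0.42 and 0.17 over 10 pairs. Of the 20 mice, 11 were closest to their own number, where 8 is the average without pairing. In batch 1 each group of treatment and sex held 2 mice, whose deviations from their mean are exact opposites. Their matches and their correlations are therefore not independent, and neither can decide whether the numbers mark pairs. The replicate block left 0 members called. The number of members higher in males, 15 (19.5%, against 8.79% of all genes), was 7 without the filter on low counts (9.09%, against 4.60%). It was 1 in batch 1 alone (1.30%, against 5.49%), 1 in batch 2 alone (1.30%, against 3.38%), 1 in untreated mice alone (1.30%, against 1.95%) and 0 in HK-treated mice alone (against 2.94%). It was 3 without HK-treated males 1 and 4 (3.90%, against 6.51%). With each mouse left out it ran from 5 without HK-treated male 1 (6.49%, against 6.83%) to 20 without HK-treated male 3 (26.0%, against 9.02%). That without both males was chosen after seeing the data. Between batches the 16 members called became 6 in untreated mice alone, all higher (7.79%, against 8.19% of all genes). In HK-treated mice alone 1 was called, also higher (1.30%, against 4.82%). Calls ranged from 14 to 26 with each mouse left out. Without HK-treated male 3 there were 26, of which 25 were higher (32.5%, against 17.8% of all genes). Without HK-treated male 2 the share called higher was 15.6%, against 17.2%. Subsets hold fewer mice, and otherwise the cause was not tested. HK log2 fold changes near 0 changed sign. Mrps18a, at -0.0031, was 0.00082 with size factors, 0.0078 without the filter, 0.00056 with DESeq2, 0.083 in batch 1 alone and -0.046 to 0.022 with each mouse left out. Mrpl23 was -0.0015 with voom, -0.0016 with the replicate block, -0.063 in batch 2 alone, -0.064 in females alone and -0.039 to 0.023 with each mouse left out. Mrps18b was 0.0045 in batch 1 alone and -0.046 to 0.0033 with each mouse left out. In batch 1 alone Mettl17 was 0.048, Mrps35 was 0.013 and Tars2 was 0.0076. In males alone Mrpl39 was -0.021, Mrpl58 was -0.070, Mrps24 was -0.031 and Mrps28 was -0.015, and in females alone Mrpl55 was 0.0016. None of these differences passed the test.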
